A study of Gossypium hirsutum with 6 samples.

Results

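Gene expression in the cotton ovule on the day of flowering was set against gene expression in the young leaf (ovule-leaf, OL). Members of the comparison were all gene models with a mean of at least 0.5 FPKM (fragments counted on a gene model, divided by its length in kilobases and scaled to the library's mapped fragments) over the 2 ovule and the 2 leaf libraries. This rule kept 41456 of the 77357 models in the table, or 53.6%. Models just inside the limit, such as Gorai.008G173100 at a mean of 0.50004 FPKM, hardly differed from models just outside it, such as Cotton_A_01746 at 0.49982 FPKM.

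The study measured mRNA, methylation and small RNAs in tissues of greenhouse-grown allotetraploid cotton (Gossypium hirsutum acc. TM-1), and the comparison asked which genes change their expression when an ovule is compared with a leaf. The groups used here were young leaves (2 mRNA libraries) and ovules at 0 days post anthesis (0 DPA, 2 libraries), and fibers at 14 DPA (2 libraries) served to estimate the spread and as a further tissue beside the named models. All libraries came from 1 untreated accession. The labels call the libraries of a tissue biological replicates but do not say that they came from separate plants, so p-values measure only the spread between these libraries.

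A cotton ovule at flowering holds the embryo sac, the nucellus around it and the integuments that later form the seed coat. On its surface, single epidermal cells begin to bulge out on this day and become the fibers. A young leaf is an organ of photosynthesis, in which a few nuclear genes for carbon fixation and light harvesting are transcribed at very high levels in plants generally. The allotetraploid carries an A and a D subgenome from different ancestors, so that most genes have an A and a D copy (homoeologs). The identifiers were of 2 kinds, Cotton_A and Gorai. They are called A-genome and D-genome models here from the prefix alone. A search of RefSeq's cotton gene table matched 0 of the 77357 identifiers. Gene models are therefore given without gene names or functions, the tissue labels were not checked against marker genes, and no sequences are shown.

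Relative depth was read from the steps between the FPKM values of a library. With fiber replicate 1 set to 1, it came to 0.704 and 0.728 for leaf and to 0.867 and 0.740 for ovule. Whole reads could be recovered for 27097 of the members (65.4%), for 93.7% of the A-genome members but only 38.6% of the D-genome members. These numbers are lower bounds, and a recovered member had a median of 186 reads summed over the 4 libraries. Replicates lay close together, with a median SD of log2(FPKM + 1) between replicates of 0.102 in leaf and 0.0950 in ovule.

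Most members were expressed in both tissues. A mean of at least 0.5 FPKM was reached in both tissues by 33251 members, in the ovule alone by 5045 and in the leaf alone by 3160. The ovule-only group held 2507 A-genome and 2538 D-genome models, and the leaf-only group held 1603 and 1557. Members were 50.2% of all A-genome models and 57.2% of all D-genome models, and 15048 A-genome and 9920 D-genome models were listed at 0 in all 4 libraries.

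On the deposited scale, more models reached low, medium and high levels in the ovule, and more reached the very highest in the leaf. At least 1 FPKM was reached by 32087 and 32346 members in the leaf libraries and by 35281 and 35093 in the ovule libraries. At least 10 FPKM was reached by 10750 and 10899 members in leaf and by 13513 and 13366 in ovule. At least 100 FPKM was reached by 1242 and 1286 members in leaf and by 1651 and 1608 in ovule. At 1000 FPKM the order turned, with 108 and 115 members in leaf and 81 and 69 in ovule. At 5000 FPKM there were 12 and 13 members in leaf against 2 in each ovule library. The leaf and ovule libraries did not overlap at any of these levels, although 2 libraries against 2 cannot give an exact two-sided permutation p below 0.333. These counts were not repeated under other scalings between the libraries, so their order holds for FPKM as deposited only.

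Leaf expression was concentrated in few models. The single most abundant model of a leaf library held 4.95% and 4.65% of its summed FPKM, and that of an ovule library held 0.876% and 0.856%. The 10 most abundant models held 12.3% ± 0.141 of the total in leaf and 4.83% ± 0.113 in ovule (SD, n = 2). To reach 50% of the summed FPKM took 425 and 405 models in leaf, but 1237 and 1308 in ovule. FPKM values are scaled to the library's total, so levels are compared here as shares of a library.

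**Figure D1:**
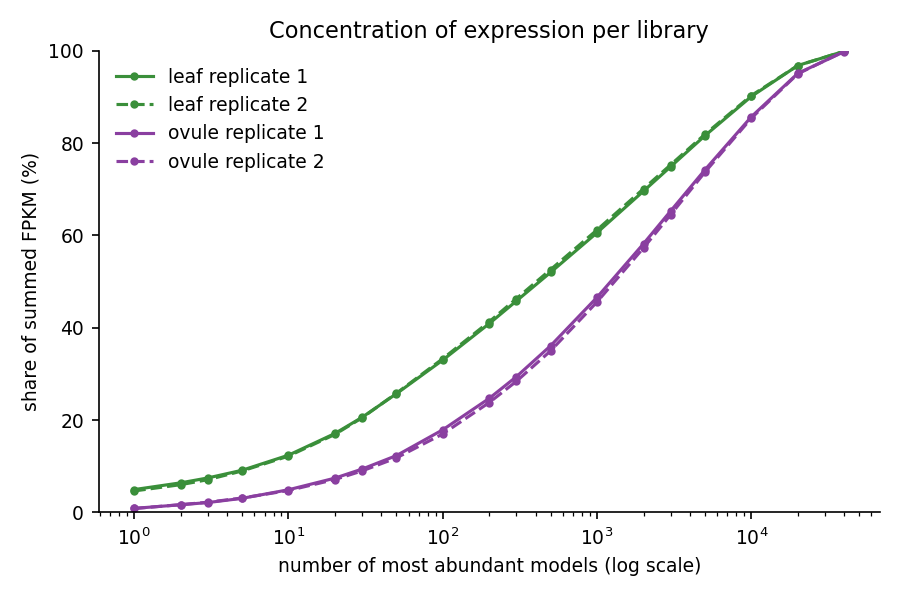
Share of the summed FPKM of a library (vertical axis, %) held by its most abundant gene models (horizontal axis, number of models on a log scale), with 1 line per library. Both leaf lines lie above both ovule lines at each number of models up to 20000, and 1000 models held 60.6% and 61.2% of the total in leaf against 46.6% and 45.6% in ovule.

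The 5 most abundant leaf models were mostly far lower in the ovule than in the leaf. Cotton_A_22555 led with 48155 and 47148 FPKM in the leaf libraries and had 512 and 593 FPKM in the ovule libraries, with a log2 change at -6.43 (SE 0.38, limma adjusted p 5.98e-05). Cotton_A_12540 had 14234 and 13847 FPKM in leaf and 157 and 159 FPKM in ovule. The D-genome model Gorai.001G201800 had 10339 and 10928 FPKM in leaf and 123 and 136 FPKM in ovule. In each of these models the leaf mean was between 82.0 and 89.1 times the ovule mean. Cotton_A_29706 followed with 8416 and 8958 FPKM in leaf and 80.7 and 83.8 FPKM in ovule, a 106-fold difference of means. Whether leaf RNA or leaf reads carried into the ovule libraries contributed to these ovule values was not tested. The fifth, Cotton_A_05552, stood apart with 5770 and 10232 FPKM in leaf and 4286 and 2638 FPKM in ovule. Its replicates differed widely, and its log2 change of -1.19 (SE 0.43) did not pass the test (limma adjusted p 0.0507).

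The 5 most abundant ovule models differed less between the tissues than the most abundant leaf models other than Cotton_A_05552. Their ovule mean was 2.17 to 16.6 times their leaf mean. Cotton_A_33740 had 8443 and 7935 FPKM in the ovule libraries and 3732 and 3817 FPKM in the leaf libraries. Cotton_A_12660 had 7537 and 7693 FPKM in ovule and 2687 and 2811 FPKM in leaf. These models rose by 1.12 (SE 0.054, limma adjusted p 7.69e-06) and 1.47 (SE 0.046, limma adjusted p 1.73e-06) on the log2 scale. Both changes fell below 2-fold, at 0.43 and 0.78, when libraries were scaled by the median of ratios. With quantile normalization they were larger, at 3.06 and 2.72. Larger differences were found in the next 3 models. Cotton_A_12138 had 4467 and 4865 FPKM in ovule against 260 and 301 FPKM in leaf, and its log2 change was 4.05 (SE 0.10, limma adjusted p 1.01e-06). Cotton_A_04686 had 4687 and 4559 FPKM in ovule against 635 and 642 FPKM in leaf. Cotton_A_21434 had 3782 and 3927 FPKM in ovule against 237 and 242 FPKM in leaf, a 16.1-fold difference of means (limma adjusted p 5.91e-07). All 5 were far lower in fibers, where their mean lay between 65.4 and 450 FPKM.

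The lists of most abundant models hardly overlapped. The leaf and the ovule shared 1 of their 10 most abundant models, 9 of 100 (9% of each list) and 298 of 1000 (29.8% of each list). Of the 100 most abundant leaf models, 92 were lower in the ovule and 2 were higher, and of the 100 most abundant ovule models, 81 were higher in the ovule and 2 were lower. These models were chosen for their level in 1 of the tissues compared, so these counts are a description.

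All 41456 members were tested on the scale of log2(FPKM + 1). A differentially expressed gene (DEG) had a Benjamini-Hochberg adjusted p under 0.01 (limma, all 6 libraries in the fit) and moved more than 2-fold on this scale. In all, 13346 members were up-regulated in the ovule (32.2% of those tested) and 6821 were down-regulated (16.5%), together 20167 DEGs (48.6%). Both ovule libraries lay above both leaf libraries in 59.8% of the members and below them in 29.1%. In bulk tissue, a lower level can mean fewer cells that express a gene or less RNA per cell, and these cannot be told apart.

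The surplus of up-regulated models depended on how the libraries were scaled. The median log2 change of all members was 0.52 as deposited. Quantile normalization brought it to 0.15 and median-of-ratios scaling to 0.01. Up-regulated models made up 66.2% of the DEGs as deposited, and 51.5% and 44.8% under these scalings. Median-of-ratios scaling lowers ovule values against leaf values. Quantile normalization lowered the median change in every class of mean level below 500 FPKM, but raised it from -1.33 to -0.97 in the class of 500 FPKM or more. Up-regulated calls could therefore mainly be lost and down-regulated calls mainly kept, except among the most abundant models under quantile normalization. Of the 6821 down-regulated models, 6777 (99.4%) were called in the same direction under all 3 scalings, against 7423 (55.6%) of the up-regulated models, and 0 models turned to the opposite direction. With the 100 most abundant leaf models left out and each library rescaled to an equal total, the median log2 change was 0.21, from 0.57 with these models kept in.

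**Figure D2:**
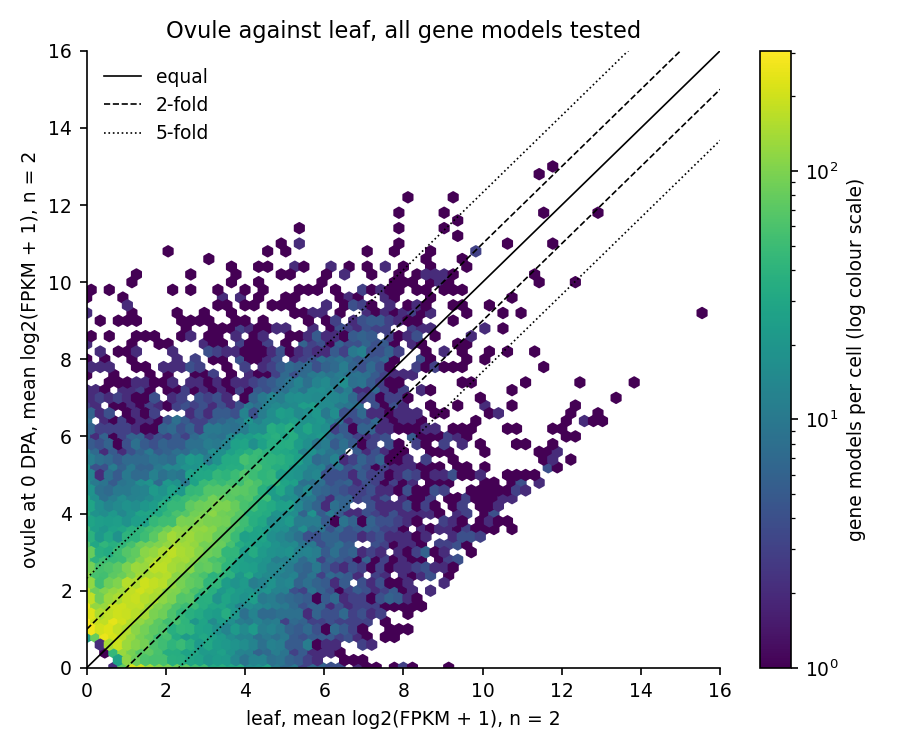
Mean log2(FPKM + 1) of the 2 leaf libraries (horizontal axis) against that of the 2 ovule libraries (vertical axis) for the 41456 members, with the number of models per cell as a log colour scale and lines at equality, 2-fold and 5-fold. The bulk of the models lies above the line of equality (median log2 change 0.52), and on the lower right the cloud ends in a straight edge parallel to it, where many abundant leaf models kept about 1% of their leaf level in the ovule.

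Large changes were more evenly divided than small ones on the deposited scale. Over 5-fold, 3295 models were ovule-preferred (7.95% of members) and 2782 leaf-preferred (6.71%). The order turned with quantile normalization (2491 and 3558) and with median-of-ratios scaling (2042 and 3849). Over 10-fold there were 1305 up-regulated and 1406 down-regulated models, and over 50-fold 168 and 240. Over 100-fold the order turned back, with 63 up-regulated and 29 down-regulated models, of which 38 and 20 were A-genome models. This last order also depended on scaling, since median-of-ratios scaling gave 40 and 138 models over 100-fold, while quantile normalization gave 57 and 44.

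Most preferred models were still detected in the tissue where they were lower. Of the ovule-preferred models, 38.1% had a leaf mean under 0.5 FPKM, 40.2% had one between 0.5 and 5 FPKM and 21.7% had one of 5 FPKM or more. Of the leaf-preferred models, the corresponding shares in the ovule were 32.4%, 42.1% and 25.6%. The median level of ovule-preferred models was 22.8 FPKM in ovule and 1.03 FPKM in leaf, and that of leaf-preferred models was 28.7 FPKM in leaf and 1.40 FPKM in ovule. At least 100 FPKM in the preferred tissue was reached by 537 ovule-preferred and 651 leaf-preferred models.

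Calls became more frequent with expression level, and the most abundant class differed from the others. Among models with a mean of 0.5 to 1 FPKM over the 4 libraries, 16.9% were up-regulated and 11.7% were down-regulated, against 32.2% and 16.5% of all members. Between 100 and 500 FPKM these shares were 46.1% and 28.7%. In the class of 500 FPKM or more, which held 211 models, 35.1% were up-regulated and 52.6% were down-regulated. The median log2 change there was -1.33, and it was -0.97 with quantile and -2.01 with median-of-ratios scaling. In the other classes the median was between 0.27 and 0.89 as deposited. The pseudocount of 1 leaves models under 1 FPKM no room for a 5-fold change, and 0 models of the lowest class were preferred in either direction.

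**Figure D3:**
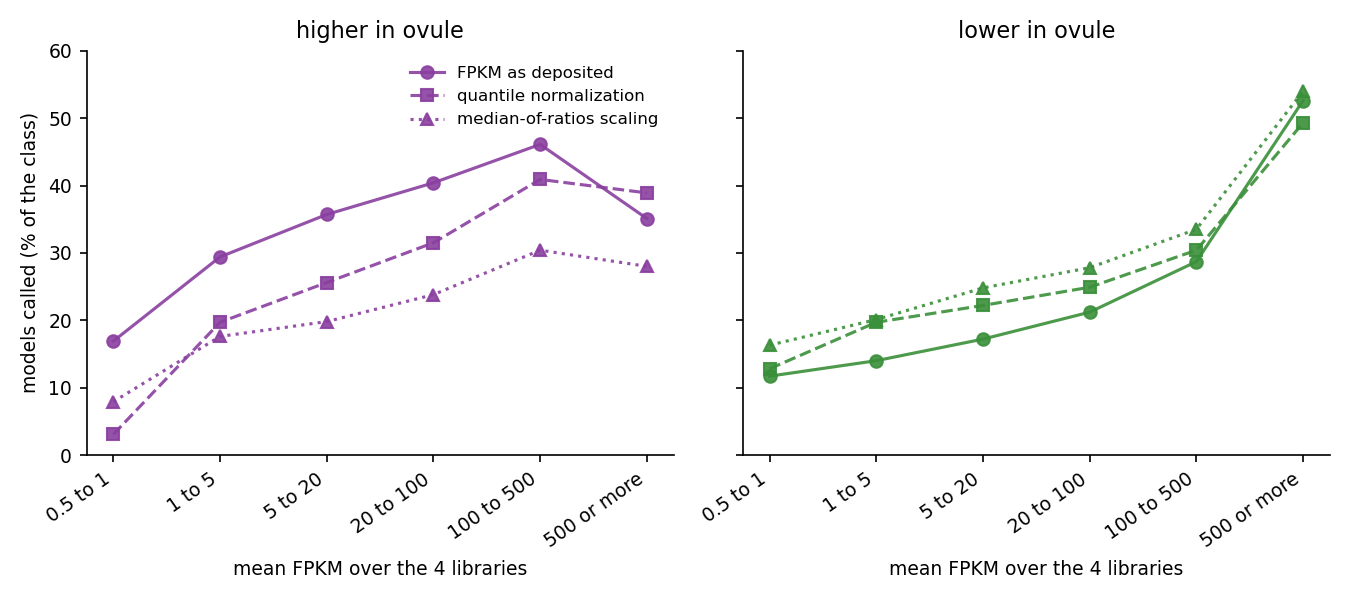
Share of gene models called higher (left) or lower (right) in the ovule (vertical axis, % of the class) by class of mean FPKM over the 4 libraries (horizontal axis), as deposited and under 2 other scalings. The share of down-regulated models rose to 52.6% in the class of 500 FPKM or more and lay at 49.3% and 54.0% there under the other scalings, while the share of up-regulated models moved with the scaling in every class.

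The largest increases are described for models with at least 50 recovered reads. Models listed at 0 in all leaf and fiber libraries could not reach this number. Cotton_A_15019 was listed at 0 in both leaf libraries and had 710 and 483 FPKM in the ovule libraries, from 69 and 40 recovered reads (limma adjusted p 2.78e-05). Cotton_A_21869 had 0 and 4.05 FPKM in leaf and 1202 and 975 FPKM in ovule, and changed by 8.91 on the log2 scale (SE 0.78, limma adjusted p 2.59e-04), a call lost under the study's own rule of an unadjusted test. Both were also high in fibers, at a mean of 1156 and 1124 FPKM. The other models of this group were low in fibers. Cotton_A_07113 had 1.22 and 0.590 FPKM in leaf, from 2 and 1 recovered reads, and 894 and 754 FPKM in ovule, from 1804 and 1297 reads. Its log2 change was 8.77 (SE 0.17, limma adjusted p 5.93e-07), and its fiber mean was 14.9 FPKM. Cotton_A_33852 was listed at 0 in leaf and had 360 and 327 FPKM in ovule, from 363 and 281 reads, with a fiber mean of 5.28 FPKM. Cotton_A_02032, also listed at 0 in leaf, had 361 and 282 FPKM in ovule and a fiber mean of 33.1 FPKM. In each of these 5 models, both ovule libraries exceeded both leaf libraries, which was a condition of their choice and gives no further support. A fitted change against a tissue listed at 0 depends on the pseudocount and is not given.

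The largest decreases among models with at least 50 recovered reads started from high leaf levels, and the models were still listed above 0 in the ovule libraries. Models listed at 0 in all ovule and fiber libraries could not reach this number of reads. Cotton_A_00084 had 495 and 562 FPKM in leaf and 3.53 and 3.76 FPKM in ovule. Its log2 change was -6.83 (SE 0.12, limma adjusted p 4.59e-07), with 11 and 10 recovered reads left in the ovule libraries. Cotton_A_25385 had 449 and 421 FPKM in leaf and 2.60 and 3.62 FPKM in ovule. Cotton_A_03157 had 574 and 597 FPKM in leaf and 6.51 and 3.06 FPKM in ovule. The D-genome model Gorai.002G214600 had 645 and 727 FPKM in leaf and 3.91 and 7.64 FPKM in ovule, and its log2 change was -6.72 (SE 0.33, limma adjusted p 1.85e-05). Cotton_A_07193 had 177 and 188 FPKM in leaf and 0.699 and 0.820 FPKM in ovule, from 1 recovered read in each ovule library. By the ratio of mean FPKM, these 5 decreases ran from 119-fold to 241-fold. Their fiber means were 0.282 to 3.37 FPKM. As for the abundant leaf models, a carry-over from leaf was not tested, so these ovule values are levels in the libraries and may not be expression in the ovule.

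**Figure D4:**
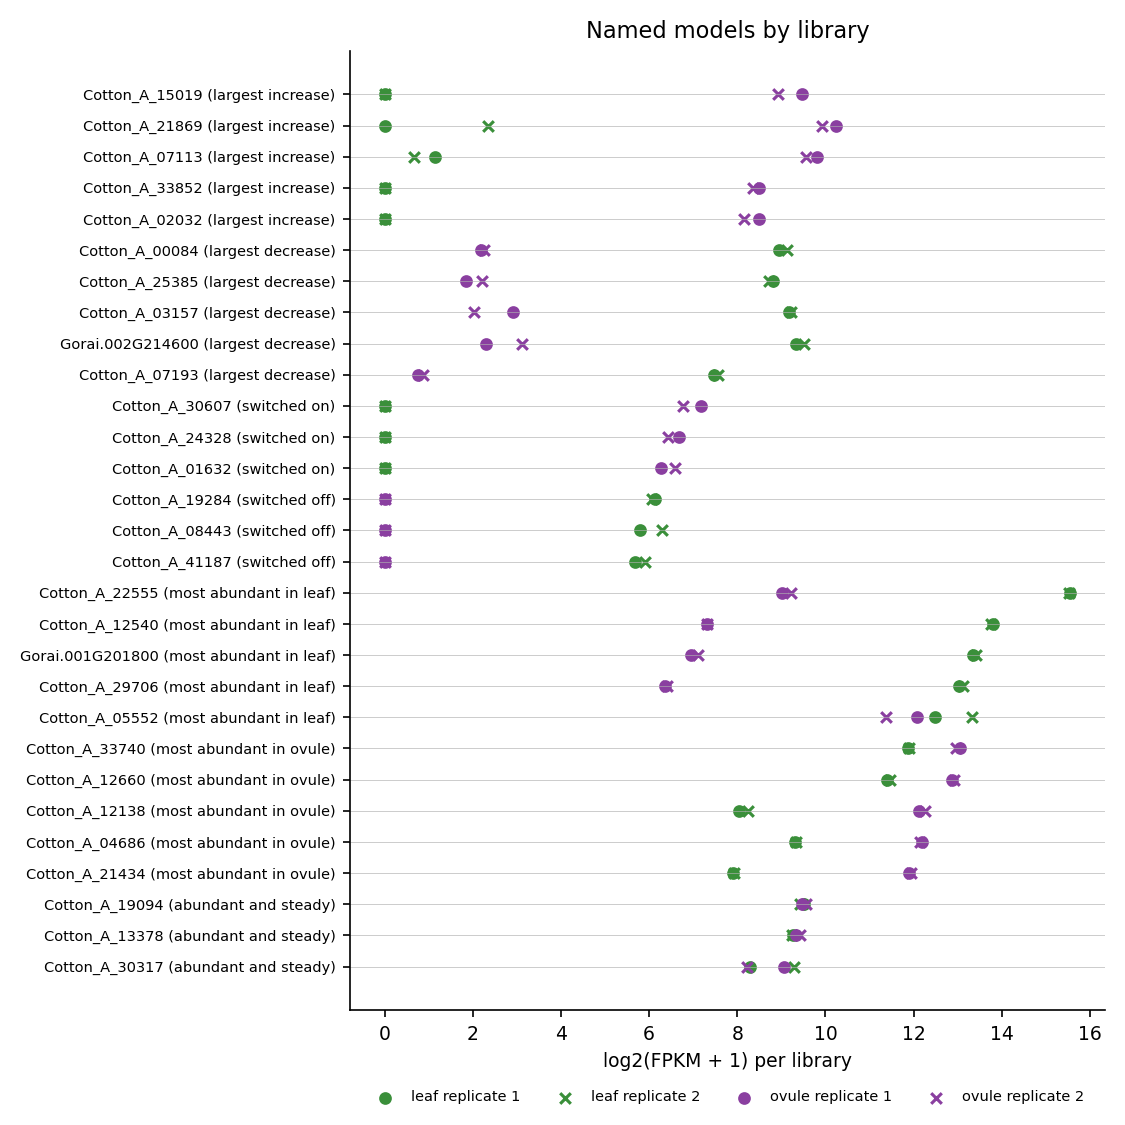
Level of the named gene models in each library as log2(FPKM + 1) (horizontal axis), with leaf libraries in green, ovule libraries in purple, circles for replicate 1 and crosses for replicate 2. Ovule and leaf symbols are apart in every increase, decrease and switch, which follows from how these models were chosen. They overlap in the steady models Cotton_A_19094 and Cotton_A_30317, the latter with 310 and 625 FPKM in leaf and 530 and 295 FPKM in ovule.

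Many abundant leaf models kept a similar small part of their leaf level in the ovule. Of the 108 models with at least 1000 FPKM in both leaf libraries, 54 had an ovule mean between 0.5% and 1.5% of their leaf mean, and 0 lay under 0.5%. In that group of 54 the median level was 1.16% of the leaf mean in ovule replicate 1 and 1.24% in ovule replicate 2. The same models had a median of 0.173% of the leaf mean in fiber replicate 1 and 0.0841% in fiber replicate 2. With a minimum of 500 FPKM in leaf, 89 of 230 models (38.7%) lay in this band and 0 lay below it. The lowest of all 230 was Cotton_A_13861 at 0.590%.

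The opposite direction showed no such band. Of the 192 models with at least 500 FPKM in both ovule libraries, 14 (7.29%) had a leaf mean between 0.5% and 1.5% of their ovule mean, and 13 (6.77%) lay under 0.5%. Of the models with at least 1000 FPKM in ovule, the lowest leaf level was that of Gorai.013G015900, at 0.151%. Among models of at least 100 FPKM with 1000 or more recovered reads in the tissue where they were abundant, 1 of 407 leaf models and 11 of 601 ovule models kept under 0.5% in the other tissue. This band was noticed in the data, and the source of the low level in the ovule libraries, ovule expression or carry-over from leaf, was not tested. Only 5% of the 230 abundant leaf models lay at 0.960% or less of their leaf mean.

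On/off switches were models listed at 0 FPKM in both libraries of a tissue and at 1 FPKM or more in both libraries of the other. There were 1214 models switched on in the ovule (2.93% of members) and 926 switched off (2.23%). A switch was a change at low level in most cases. The median level in the expressing tissue was 3.25 FPKM (quartiles 1.96 and 7.31) for models switched on and 3.33 FPKM (quartiles 1.83 and 7.22) for models switched off. At least 10 FPKM in both expressing libraries was reached by 205 models switched on and 150 switched off, and at least 50 FPKM by 36 and 25. Among models with a mean of 0.5 to 1 FPKM over the 4 libraries, 6.81% were switched on and 5.95% were switched off. In the class of 20 to 100 FPKM these shares were 0.699% and 0.516%, and in that of 500 FPKM or more there were 0 in either direction.

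Few reads were recovered for many switches. Of the 631 models switched on for which reads could be recovered, 134 (21.2%) were recovered with fewer than 10 over the 4 libraries. Of 308 such models switched off, 105 (34.1%) were recovered with fewer than 10. Among all members with recovered reads the share was 2.69%. A model above 0 in only 2 libraries could be recovered only as 1 read in each. This held for the 453 models switched on and 592 switched off that were listed at 0 in both fiber libraries. These shares therefore follow in part from the way reads were recovered, and no difference between the directions is drawn from them. With at least 10 recovered reads required, 497 models were switched on and 203 were switched off, and every switch listed at 0 in both fiber libraries was left out. For the models with few reads, an FPKM of 0 does not show absence at this depth.

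The share of switched models was larger among A-genome than among D-genome members. Of the A-genome members 3.49% were switched on and 2.57% were switched off, against 2.40% and 1.91% of the D-genome members. No test was run on these shares, since gene models are not replicates.

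Models switched on in the ovule were more often expressed in fibers than models switched off. In both fiber libraries, 280 of the models switched on (23.1%) had at least 1 FPKM and 453 (37.3%) were listed at 0. Of the models switched off, 67 (7.24%) had at least 1 FPKM in both fiber libraries and 592 (63.9%) were listed at 0. For all members the shares were 65.2% and 8.33%. The fiber libraries took no part in defining the switches, and the reason for this difference was not tested.

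Among the other switches with at least 50 recovered reads, the highest lay between 50.3 and 143 FPKM. Switches listed at 0 in both fiber libraries could not reach this number of reads, so a value above 0 in fiber was a condition of the choice. Over all switches, the highest mean in the expressing tissue was 969 FPKM for models switched on and 533 FPKM for models switched off. Cotton_A_30607 was listed at 0 in both leaf libraries and had 143 and 108 FPKM in the ovule libraries, from 107 and 69 recovered reads. Cotton_A_24328 had 102 and 84.7 FPKM in ovule, from 76 and 54 reads. Cotton_A_01632 had 76.5 and 95.9 FPKM in ovule, from 323 and 345 reads. All 3 were at 0 in leaf and had 2.94 to 6.42 FPKM on average in fibers. Of the models switched off, Cotton_A_19284 had 68.7 and 66.4 FPKM in leaf, from 30 recovered reads in each library. Cotton_A_08443 had 54.7 and 77.7 FPKM in leaf, from 32 and 47 reads, and Cotton_A_41187 had 50.3 and 59.2 FPKM, from 97 and 118 reads. These were listed at 0 in both ovule libraries, and Cotton_A_08443 had 25.3 and 9.99 FPKM in the fiber libraries. All 6 switches passed the test (limma adjusted p between 4.59e-07 and 2.12e-04). So did 1193 of the 1214 models switched on and 914 of the 926 switched off. The switches were chosen from the same libraries, so passing gives them no further support.

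Some abundant models had nearly equal levels in both tissues on the deposited scale. Cotton_A_19094 had 727 and 686 FPKM in leaf, 709 and 754 FPKM in ovule and 734 and 756 FPKM in fiber, and its OL log2 change was 0.05 (SE 0.050, limma adjusted p 0.376). Cotton_A_13378 had 614 and 606 FPKM in leaf and 644 and 684 FPKM in ovule, but 158 and 170 FPKM in fiber. Their log2 changes were 0.34 and 0.39 with quantile normalization but -0.64 and -0.57 with median-of-ratios scaling, so that no direction is drawn. Cotton_A_30317, at 310 and 625 FPKM in leaf and 530 and 295 FPKM in ovule, met the same rule only on average, and its libraries of the 2 tissues overlapped.

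A-genome and D-genome models took part in the OL change to a similar extent. Of the 20146 A-genome members 31.8% were up-regulated and 16.7% were down-regulated, and of the 21310 D-genome members 32.5% and 16.2%. The median log2 change was 0.51 and 0.53. The subgenomes differed in level. A-genome models were 48.9% of the models with a leaf mean of at least 1 FPKM, but 60.6% of those of at least 100 FPKM and 69.6% of the 112 models of at least 1000 FPKM. In the ovule these shares were 48.7%, 61.1% and 80.5%, the last of 77 models. All 10 of the most abundant ovule models and 9 of the 10 most abundant leaf models were A-genome models. Only uniquely mapped reads entered the table, so a model with a nearly identical homoeolog can lose reads, and the effect on these shares was not tested. Among members with at least 50 recovered reads, 223 of the 231 worth over 1 FPKM per read were A-genome models. Of the 21845 others, 15103 were. Whether the FPKM worth of a read affected these shares was not tested either.

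The chromosome number in the D-genome identifiers separated the OL changes little. Up-regulated models made up between 30.3% (chromosome 12) and 34.6% (chromosome 9) of the members of a chromosome, against 32.5% of all D-genome members. Down-regulated models made up between 14.9% (chromosomes 7 and 11) and 18.3% (chromosome 12), against 16.2%. The share of up-regulated models among the DEGs was highest on chromosomes 11, 7 and 9, at 69.5%, 69.3% and 69.0%, and lowest on chromosomes 12 and 1, at 62.4% and 63.6%. After median-of-ratios scaling the same chromosomes stood at the ends, with 48.9%, 49.4% and 48.1% against 40.5% and 39.4%. The share of members switched on ran from 1.28% on chromosome 3 to 3.05% on chromosome 11, and that of members switched off from 1.37% on chromosome 3 to 2.65% on chromosome 5.

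Chromosomes differed more in their share of D-genome expression, where single models weighed heavily. Chromosome 1 held 10.6% ± 0.037 of the summed D-genome FPKM in leaf and 6.45% ± 0.036 in ovule (SD, n = 2), and Gorai.001G201800 alone made up 26.7% of the chromosome's leaf value. Chromosome 4 held 7.43% ± 0.0037 in leaf and 9.79% ± 0.021 in ovule. Chromosome 13 held 6.29% ± 0.027 in leaf and 7.89% ± 0.031 in ovule. Every one of these differences exceeded the spread between replicates. They were sensitive to the most abundant models, however. Without the 190 models that were among the 100 most abundant D-genome models of either tissue, chromosome 1 held 8.56% in leaf and 7.30% in ovule, while the order turned on chromosome 4 (9.26% and 8.78%) and chromosome 13 (8.77% and 7.91%). Chromosomes 6 and 7 had the higher share in ovule both with these models (7.53% against 6.70%, and 9.46% against 8.58%) and without them (8.07% against 6.89%, and 10.5% against 9.79%).

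**Figure D5:**
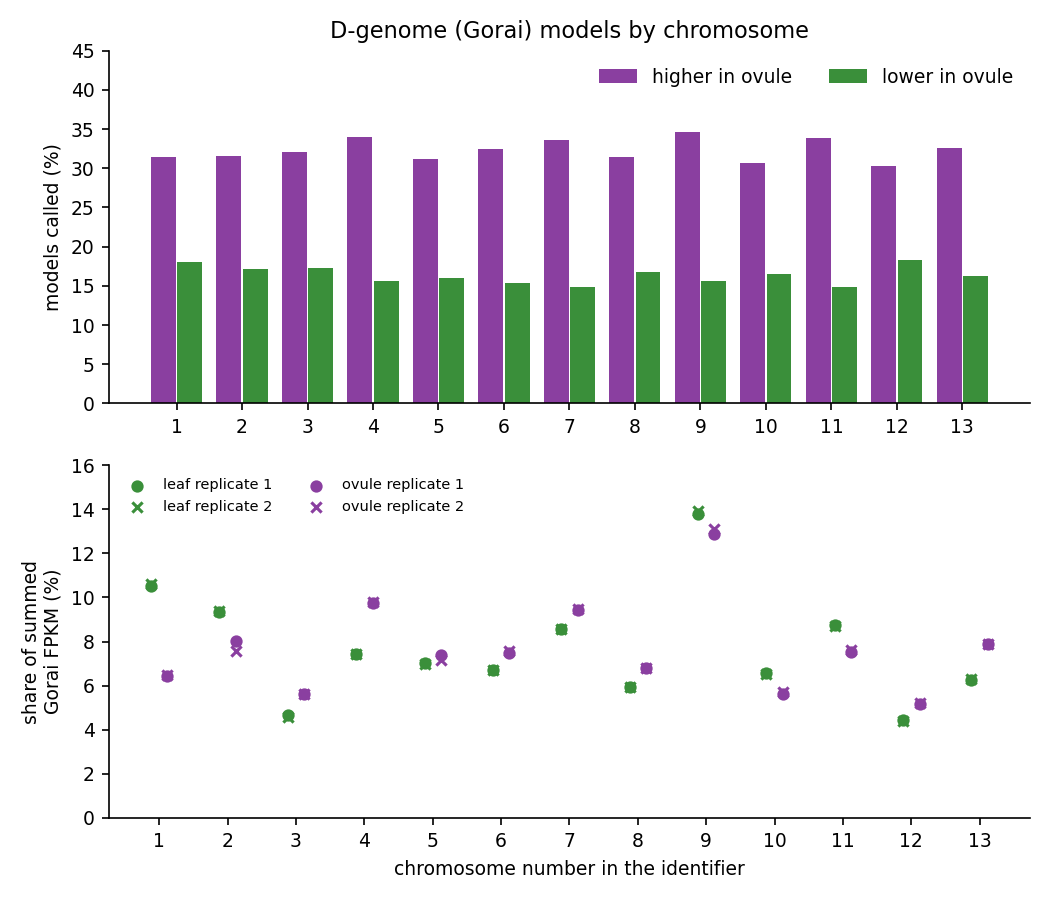
D-genome models by the chromosome number in their identifier (horizontal axis), with the share of members called higher or lower in the ovule in the upper panel (bars, %) and the share of summed D-genome FPKM in each library in the lower panel (points, %). Bars for up-regulated models stay between 30.3% and 34.6%, whereas the share of chromosome 1 fell from 10.6% in leaf to 6.45% in ovule.

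Position along a chromosome, taken as the order of the identifiers, also mattered little. When each chromosome was divided into 10 equal parts by identifier order, the share of up-regulated members was highest in the first (34.8%) and lowest in the fifth (30.7%), and that of down-regulated members lay between 14.7% and 17.6%. Directly neighbouring D-genome members were slightly more alike than distant ones. Of the members next to an up-regulated model 35.5% were up-regulated too, against 33.5% of members 50 identifiers away. Next to a down-regulated model 19.5% were down-regulated, against 16.8% at that distance. The correlation of log2 changes between direct neighbours was 0.064 over 13391 pairs, which share libraries and chromosome, and is given as a description.

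Short runs of neighbouring models that moved in the same direction were more numerous among up-regulated than among down-regulated models on the deposited scale. There were 276 runs of 3 or more up-regulated neighbours, with 925 models in all, and 44 runs of 3 or more down-regulated ones, with 136 models. The longest up-regulated runs held 7 models and the longest down-regulated runs held 4, and 4 runs in each direction had that length. These counts stand beside 6930 up-regulated and 3453 down-regulated D-genome members (32.5% and 16.2%), and runs were sought among all 37223 D-genome identifiers. More frequent calls give more runs, and the surplus of up-regulated calls depended on scaling. Median-of-ratios scaling gave 18.4% up-regulated and 22.4% down-regulated D-genome members. Runs were not recounted there, so no difference between the directions is drawn.

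The run of 7 with the largest median change lay on chromosome 9, from Gorai.009G106700 to Gorai.009G107300. Its strongest members were Gorai.009G107300, at 40.0 and 36.1 FPKM in leaf and 172 and 174 FPKM in ovule, and Gorai.009G107000, at 42.5 and 48.0 FPKM in leaf and 124 and 116 FPKM in ovule. Gorai.009G106700 rose from 10.1 and 12.6 FPKM to 56.2 and 52.0 FPKM, and Gorai.009G106800 from 5.23 and 4.41 FPKM to 32.1 and 30.6 FPKM. The remaining members were low in leaf. Gorai.009G107200 had 0.426 and 0.0925 FPKM in leaf and 8.46 and 6.41 FPKM in ovule, the largest log2 change of the run at 2.75 (SE 0.21, limma adjusted p 5.26e-05). Gorai.009G107100 had 0.692 and 0.837 FPKM in leaf and 5.48 and 6.59 FPKM in ovule, and Gorai.009G106900 was listed at 0 in leaf and had 1.5 and 1.28 FPKM in ovule. Ovule and leaf libraries did not overlap in any member, but the changes of Gorai.009G106900 (0.87 with quantile) and Gorai.009G107000 (0.71 with median-of-ratios scaling) fell below 2-fold. In fibers the run did not move as a unit, since Gorai.009G107100 was listed at 0 and Gorai.009G107000 had 77.2 and 74.0 FPKM.

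The corresponding run of 4 down-regulated models lay on chromosome 1, from Gorai.001G208800 to Gorai.001G209100. Gorai.001G209000 had 190 and 189 FPKM in leaf and 3.96 and 5.23 FPKM in ovule, and its log2 change was -5.10 (SE 0.13, limma adjusted p 9.66e-07). Gorai.001G208800 had 13.6 and 13.9 FPKM in leaf and 0.598 and 0 FPKM in ovule, and Gorai.001G208900 had 7.99 and 5.83 FPKM in leaf and 0.825 and 1.16 FPKM in ovule. The last member was the weakest. Gorai.001G209100 had 0.819 and 2.38 FPKM in leaf and was listed at 0 in ovule, and its call (limma adjusted p 0.00516) was lost when leaf replicate 2 (log2 change -0.86), ovule replicate 1 or ovule replicate 2 was left out, with the 4 ovule and leaf libraries alone, and under the study's rule of an unadjusted p. Gorai.001G208900 also lost its call under that rule.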

How the data were processed

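The 6 mRNA-seq libraries (stranded, single-end, 2 per tissue) of young leaf, 0 DPA ovule and 14 DPA fiber were grouped by their labels. The authors deposited 1 table of FPKM values, not pooled over replicates. They mapped reads with Tophat, kept unique hits and ran Cufflinks on annotated genes. The submitters' processing notes name CASAVA 1.8, with other versions not given in the sources used here. The methods name the TM-1 genome as reference, whereas the identifiers are Cotton_A and Gorai, and this was not resolved. No scaling between libraries beyond FPKM is described.

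Tests used limma 3.58.1 in R 4.3.3 on log2(FPKM + 1) (1 mean per tissue over 6 libraries, contrast of ovule and leaf, variance trend, robust empirical Bayes), which was tested on simulated data. The pseudocount of 1 makes changes of low values smaller than they are. Whole reads were recovered from all values of a model above 0, divided by 1 factor per library. These had to stand in whole-number ratios within at most 0.05 of a read. The chance of a false match was held to at most 0.001, with a looser limit where the largest value was taken as 1 read. A model above 0 in only 2 libraries could therefore be recovered only as 1 read in each. A further 284 models of all those in the table, each worth under 0.005 FPKM per read were set aside. Recovery was lower for D-genome models, so named models lean to the A genome. Models chosen by their recovered reads leave out all switches listed at 0 in both fiber libraries.

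Members, lists and rules were chosen with earlier results of these data known. Named were the 5 largest changes each way and the 3 highest other switches each way with at least 50 recovered reads, the 5 most abundant models per tissue, the 3 most abundant models with a log2 change within 0.25 of 0, and the longest run of neighbouring D-genome models each way. The largest changes were taken from called models whose ovule libraries both lay above or both below the leaf libraries. The share left in the other tissue, the spread by FPKM per read, and the shares without the most abundant models were computed after the data had been seen. Alternatives were other pseudocounts, filters, scalings, library sets and calling rules. Promoters and proteins were not used here.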

Additional observations from a re-analysis of the deposited data

How the results depend on the processing

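Of 74 counts recomputed under alternatives, 20 moved by over 1.5 times. Median-of-ratios scaling gave 7707 up-regulated and 2042 ovule-preferred models. A pseudocount of 0.1 gave 6407 ovule-preferred and 4561 leaf-preferred models, because it enlarges changes of low values. With a mean of at least 5 FPKM, 7768 models were up-regulated and 4006 down-regulated, and 20619 models were tested. With at least 10 recovered reads these counts were 8565 and 4202, with 2147 ovule-preferred, 1664 leaf-preferred, 497 switched-on and 203 switched-off models. Without models worth over 1 FPKM per read or lacking recovered reads, an alternative chosen after seeing the data, they were 8538, 4216, 2074, 1632, 514 and 239. The last 2 alternatives tested 26368 and 26279 models. The minimum of 10 recovered reads also removed every switch listed at 0 in both fiber libraries. Requiring 5 FPKM for the expressing tissue left 385 models switched on and 288 switched off.

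With 1 library left out at a time there were 12189 to 12964 up-regulated, 6321 to 6576 down-regulated, 3246 to 3387 ovule-preferred, 2760 to 2825 leaf-preferred, 1342 to 1770 switched-on and 1023 to 1261 switched-off models, and the lone library of a tissue was then taken to vary as the other tissues do. For switches, 1 library then decides that a tissue is at 0. The study's rule with an unadjusted p under 0.01 gave 9056 up-regulated and 4937 down-regulated models.

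Replicate numbers did not pair the libraries, since deviations of same-numbered leaf and ovule libraries correlated at -0.0568 across models. With the replicate number as a block, 13286 models were up-regulated and 6804 down-regulated. Of 462 values of 36 named and called models under alternatives, 451 kept their call, 11 lost it and 0 changed sign. Detection limits the switches, and no depth in mapped reads was given in the table.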

Other observations

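Models for which 1 read was worth much FPKM varied more between replicates. A high worth per read goes with a short effective length. Among members with at least 50 recovered reads, the 231 models worth over 1 FPKM per read had a median SD of log2(FPKM + 1) between replicates of 0.323 in leaf and 0.200 in ovule, against 0.102 and 0.0918 in the 21845 other models. Of the 231, 223 were A-genome models, against 15103 of the 21845 others, and they included Cotton_A_05552 and Cotton_A_30317. Their median number of recovered reads was 127, against 261 in the others.

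The worth of a read also moved with the calls. When members with recovered reads were cut into 4 equal groups by FPKM per read, 29.4% of the lowest group (0.00524 to 0.0512) were up-regulated and 10.8% down-regulated, and 0.797% were switched on. In the highest group (0.149 or more), 17.6% were down-regulated and 4.83% were switched on. The share of down-regulated models did not rise steadily, with 16.5% and 18.7% in the groups between. The share of switched-on models did, with 1.59% and 2.10%. Switched-on models listed at 0 in both fiber libraries entered these groups only where 1 read per ovule library was recovered.

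Replicates disagreed on presence for a small group of members. In leaf, 1331 members (3.21%) were listed at 0 in 1 library and above 0 in the other, and in ovule 858 (2.07%). The other library had at least 10 FPKM for 62 of these in leaf and 53 in ovule, and the most extreme was Cotton_A_02691, with 2825 FPKM in 1 ovule library and 0 in the other. Of the 986 such leaf models with recovered reads, 866 had at most 3 reads in the tissue.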
